A study of Mus musculus with 6 samples.

Results

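Guanylate-binding proteins (GBPs) and immunity-related GTPases (IRGs) are interferon-induced GTP-hydrolysing proteins that act inside cells against parasites and bacteria living in vacuoles. The 10 genes described here, Gbp2, Gbp3, Gbp5, Gbp7, Gbp9, Irgm1, Irgm2, Igtp, Ifi47 and Iigp1, were chosen by name as members of these families, and all 10 were among the 15469 genes of the deposited table. Of these, 9 had enough reads to be tested and Iigp1 did not. Sequencing covered 6 RNA libraries of peritoneal macrophages, which are phagocytes resident in the abdomen. They were taken from CAIA mice, a model the labels name only by this abbreviation, were sorted for surface RELM-α, a resistin-like protein linked to alternative activation, and were then plated. The 3 libraries labelled KO are described as deleted for PU.1 and the 3 labelled WT as controls, and all 6 share the mouse model, the sort and the culture. How and when PU.1 was deleted, the strain, the age and the time in culture are not stated in the labels.

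GBPs belong to the dynamin superfamily: they bind guanine nucleotides, assemble on the membranes of microbial vacuoles or on bacteria, and help to open them and to start inflammasome responses. IRGs work beside them in a division of labour in which the regulatory proteins Irgm1, Irgm2 and Igtp (also called Irgm3) sit on the cell's own membranes and hold the effector proteins, such as Iigp1 (Irga6) and Ifi47 (Irgd), in an inactive state. In macrophages, interferon gamma switches on both families through 2 kinds of promoter element, the gamma-activated site (GAS) and the interferon-response element, the latter bound by IRF1. PU.1 (gene Spi1) is a transcription factor of the ETS family needed to form macrophages, and it also binds composite ETS-IRF elements together with IRF8 or IRF4.

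The promoter letters are shown because the elements through which interferons act are arranged differently from member to member. Of the 10 members, 8 matched the RefSeq promoter table of GRCm38.p6, and Gbp9 and Iigp1 did not. Each line gives the 120 bases before the start in that table, 5′ to 3′ on the gene's own strand, with matches to the GAS motif TTCNNNGAA or to the interferon-response core GAAANNGAA (searched on both strands) in capitals. Gbp3 has 2 starts there and the earlier is shown. That start, base 142560044, lies inside the gene range given for Gbp3 below, so the end of its line overlaps that range. Tgtp2, an IRG gene outside the 10, is added because it shares the arrangement of Igtp and Irgm2.
Gbp2, chr3:142620543-142620662, plus strand: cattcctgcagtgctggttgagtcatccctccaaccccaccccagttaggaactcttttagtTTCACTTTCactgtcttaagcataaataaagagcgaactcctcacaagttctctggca
Gbp3, chr3:142559924-142560043, plus strand: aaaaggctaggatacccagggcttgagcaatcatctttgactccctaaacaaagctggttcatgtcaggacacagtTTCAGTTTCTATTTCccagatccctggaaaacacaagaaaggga
Gbp5, chr3:142496814-142496933, plus strand: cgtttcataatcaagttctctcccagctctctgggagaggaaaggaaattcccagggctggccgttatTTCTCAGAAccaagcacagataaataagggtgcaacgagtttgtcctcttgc
Gbp7, chr3:142530216-142530335, plus strand: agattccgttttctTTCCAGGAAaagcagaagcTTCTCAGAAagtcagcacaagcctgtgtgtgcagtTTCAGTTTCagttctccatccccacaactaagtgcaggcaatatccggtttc
Irgm1, chr11:48871421-48871540, minus strand: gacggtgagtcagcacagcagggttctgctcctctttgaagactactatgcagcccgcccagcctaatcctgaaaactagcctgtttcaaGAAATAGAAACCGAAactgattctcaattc
Irgm2, chr11:58214857-58214976, plus strand: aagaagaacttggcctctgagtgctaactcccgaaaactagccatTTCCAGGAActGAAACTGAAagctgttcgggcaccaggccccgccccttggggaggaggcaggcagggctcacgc
Igtp, chr11:58199436-58199555, plus strand: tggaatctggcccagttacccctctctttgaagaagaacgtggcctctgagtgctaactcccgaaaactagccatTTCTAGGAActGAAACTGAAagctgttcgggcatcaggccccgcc
Ifi47, chr11:49076467-49076586, plus strand: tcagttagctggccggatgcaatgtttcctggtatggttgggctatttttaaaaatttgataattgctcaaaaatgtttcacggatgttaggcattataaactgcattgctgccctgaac
Tgtp2, chr11:49064213-49064332, minus strand: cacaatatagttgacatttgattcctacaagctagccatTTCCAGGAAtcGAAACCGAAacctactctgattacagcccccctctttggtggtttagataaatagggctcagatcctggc

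Over the full window of 250 bases before to 50 after the start, 7 of the 8 members held the interferon-response core, Ifi47 being the exception. Counted per promoter this is 7 of 9, since the second Gbp3 promoter held no match, beside 7.36% of the 15549 promoters of genes in the deposited table. The GAS motif was found in 4 of the 8, namely Gbp5, Gbp7, Igtp and Irgm2, beside 6.99% of those promoters. In Gbp2 the core lay 58 to 50 bases before the start, in the first Gbp3 promoter a pair of overlapping cores spanned bases -44 to -30, and in Irgm1 another overlapping pair spanned -30 to -16. Gbp7 held GAS motifs from base -106 and from base -87 and a core from base -52, and Gbp5 held GAS motifs from bases -245 and -52 and a core from base -164. The ETS-IRF core GGAANNGAA, searched on both strands, was found in Gbp5, Igtp and Irgm2, beside 7.38% of promoters, and in Igtp and Irgm2 its match overlapped both the GAS and the interferon-response core. The PU.1 core GAGGAAGT was found in Ifi47 alone among the 8, at bases -148 to -141, beside 3.14% of promoters. A match describes letters, not a bound site, and a missing match says only that these letters are not in this window.

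In Igtp the GAS motif ended 2 bases before the interferon-response core, at bases -45 to -26 as a whole, and Irgm2 held the same arrangement at -75 to -56. This spacing was noticed in the printed letters and then counted, so it is a description. It occurred in 7 of the 15549 promoters (0.045%), and 5 of the 7 belong to IRG genes: Igtp, Irgm2, Tgtp1, Tgtp2 and Gm12185. The other 2 were Adar, an RNA-editing enzyme gene, and the locus LOC115488470. Igtp and Irgm2 are neighbours on chromosome 11, and the 250 bases before their starts agreed at 134 of 220 aligned bases (60.9%) in the best alignment without gaps. No other pair that included a member exceeded 43.1%.

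Each of the libraries held 17280851 to 18632616 counts, and levels are in CPM, the count divided by the library size after its adjustment with a TMM factor. Spi1, the targeted gene, was not lower in the libraries labelled KO, at 294 ± 22.6 CPM against 316 ± 29.0 CPM in WT (SD, n = 3; 0.931-fold, adjusted p = 0.561 by the quasi-likelihood test of edgeR), so the counts do not bear out the label. KO and WT here mean the libraries so labelled. Which part of Spi1 was deleted is not given, and reads outside that part check nothing. KO replicate 1 stood apart: its log2 CPM correlated at 0.902 and 0.922 with the other KO libraries and at 0.955 to 0.959 with the WT libraries, while KO replicates 2 and 3 correlated at 0.990. The 8 macrophage markers summed to 19920 to 44710 CPM in KO and 35450 to 39820 CPM in WT, mostly from Lyz2. Of these, Csf1r was 1.72-fold higher in KO (adjusted p = 0.0208 by edgeR), Adgre1 and Cd14 were higher and Mertk and Cd68 lower in every KO library than in any WT library without passing the test. The 9 monocyte markers summed to 118 to 251 CPM in KO and 23.6 to 26.1 CPM in WT, with 2 of 6 tested, Cx3cr1 and Spn, higher at adjusted p under 0.05. Platelet markers summed to 16.1 to 54.1 CPM in KO and 59.7 to 103 CPM in WT, and 3 of 5 (Gp1bb, Gp9 and Itga2b) were lower at adjusted p under 0.05. Neutrophil markers summed to 2.35 to 6.44 CPM against 9.19 to 11.2 CPM, and eosinophil markers to 0.275 to 9.75 CPM against 18.6 to 23.2 CPM, with 0 called in edgeR (2 and 1 at an unadjusted p under 0.05), 0 in limma-voom and 1 neutrophil marker lower in DESeq2. All 4 Y-linked genes tested were lower in KO (0.0513 to 0.440 CPM summed, against 125 to 171 CPM), so the sex of the mice and the label cannot be told apart. The part of these differences in the results below was not tested. The labels do not tell whether replicates are separate mice or cultures, and the p-values therefore reflect the spread between these libraries, which may be technical.

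Of the 9 tested members, 1 passed the test, Gbp2, which was higher in the libraries labelled KO. Among all 11424 genes tested, 379 passed at an adjusted p under 0.05 (3.32%), and 258 of them were higher in KO (2.26%). The groups did not overlap, with every KO library above every WT library, in 4 of the 9 members: Gbp2, Gbp5, Irgm2 and Ifi47, beside 18.4% of all genes tested. No member had all KO libraries below all WT libraries, beside 12.6% of all genes. The median log2 difference was 0.39 over the 9 members and -0.006 over all genes tested. Without KO replicate 1, 3 of the 9 passed (Gbp2, Irgm2 and Ifi47, all higher in KO), but 49.6% of all genes then passed and 23.6% did so as higher in KO, so the members' count lies near that background. In bulk RNA a change in the share of a cell type and a change in RNA per cell cannot be told apart.

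**Figure D1:**
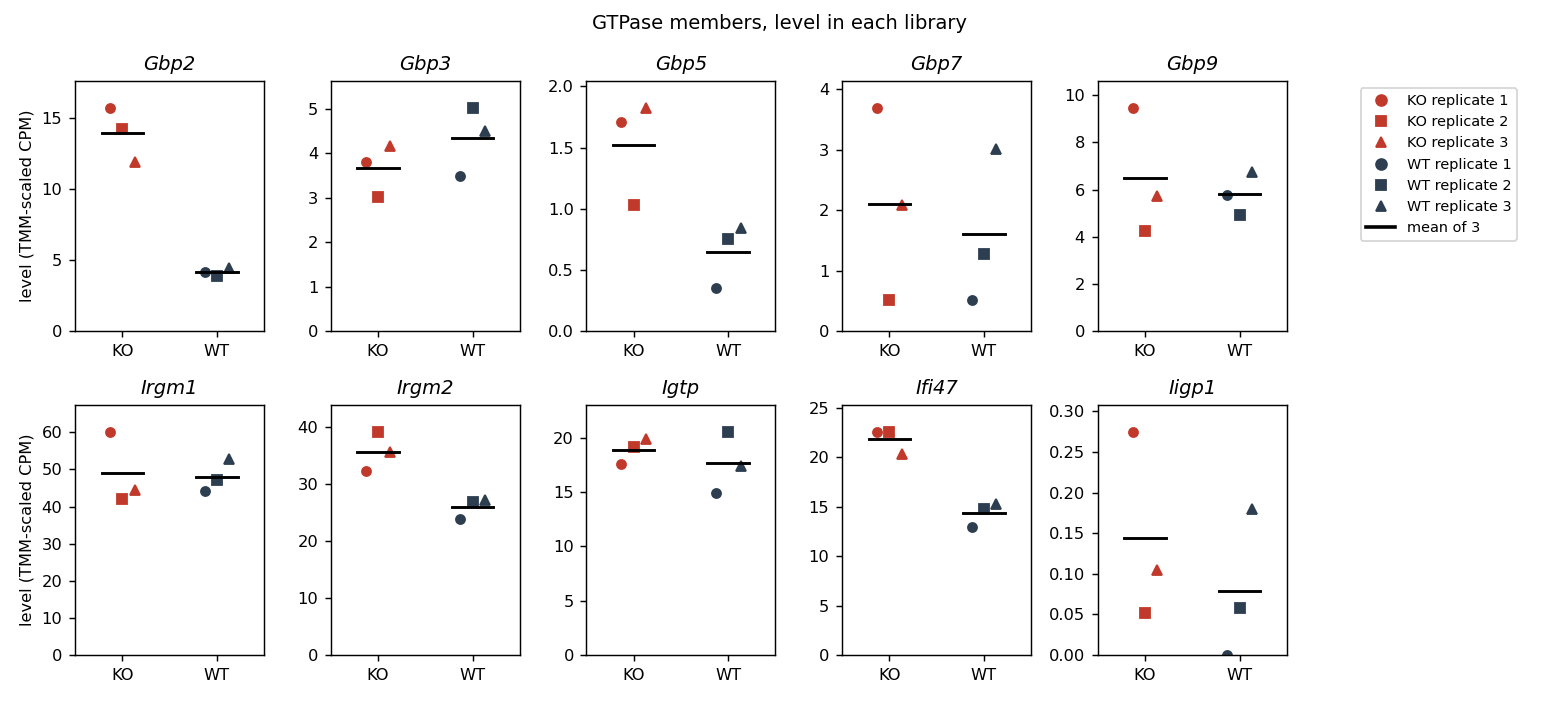
Level of each of the 10 members in every library, in TMM-scaled CPM on linear axes that start at 0, with a marker per library and a bar at the mean of 3. The KO libraries lie above the WT libraries in Gbp2, Gbp5, Irgm2 and Ifi47, and KO replicate 1 is the highest library in Gbp7, Gbp9 and Irgm1.

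Gbp2, a GBP that gathers on Toxoplasma vacuoles and cytosolic bacteria, lies on the plus strand at chr3:142620663-142638008 (GRCm38) and gave the clearest difference. Its level was 15.7, 14.2 and 11.9 CPM in KO replicates 1 to 3 and 4.13, 3.87 and 4.45 CPM in WT replicates 1 to 3. All 3 KO libraries were far above the highest WT library, and KO replicate 1 did not stand apart from the other KO libraries. The mean was 3.35-fold higher in KO, a log2 difference of 1.74 (SE 0.16, 95% interval 1.34 to 2.15, n = 3 per group, adjusted p = 0.0147 by edgeR). The authors' deposited table gives a log2 fold change of 1.74 and a q-value of 2.57e-13. Without KO replicate 1 the log2 difference was 1.67 (adjusted p = 1.15e-04 by edgeR). Leaving out any of the other 5 libraries kept the log2 difference at 1.67 to 1.81, but the adjusted p rose to 0.0712 without KO replicate 2, 0.0665 without KO replicate 3, 0.0889 without WT replicate 1, 0.153 without WT replicate 2 and 0.0957 without WT replicate 3, so the call was lost without any of these 5. Among all genes, 5 to 15 passed when any of these 5 libraries was left out.

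Gbp5, which promotes inflammasome assembly, lies at the other end of the same cluster, at chr3:142496934-142522344 on the plus strand. It was low: 1.71, 1.03 and 1.82 CPM in KO and 0.349, 0.751 and 0.841 CPM in WT, from 20 to 35 and 6 to 14 counts. The groups did not overlap, though the lowest KO library was close to the highest WT library. Its log2 difference of 1.22 (SE 0.42, 95% interval 0.19 to 2.26) did not pass the test (adjusted p = 0.164 by edgeR), nor did it without KO replicate 1 (1.15, adjusted p = 0.0544). Gbp3, a GBP encoded in the middle of the cluster at chr3:142560016-142573213, was at 3.80, 3.03 and 4.17 CPM in KO and 3.49, 5.03 and 4.51 CPM in WT. Here the groups overlapped and the estimate had the opposite sign to Gbp2 (log2 difference -0.24, 95% interval -0.82 to 0.33, adjusted p = 0.535). It was -0.26 without KO replicate 1 (adjusted p = 0.397).

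Gbp7, linked to autophagy and to the assembly of the NADPH oxidase in macrophages, lies between Gbp5 and Gbp3 at chr3:142530336-142550151. Its level spread widely within both groups, at 3.69, 0.513 and 2.09 CPM in KO and 0.523, 1.27 and 3.003 CPM in WT. That spread left an interval of -1.75 to 2.52 around a log2 difference of 0.39 (adjusted p = 0.794 by edgeR). The estimate turned to -0.28 without KO replicate 1 (adjusted p = 0.801) and to -0.04 without WT replicate 1. Gbp9, on the minus strand at chr5:105076464-105110357 in the chromosome 5 GBP cluster, was at 9.47, 4.26 and 5.73 CPM in KO and 5.76, 4.91 and 6.73 CPM in WT. KO replicate 1 was the highest and KO replicate 2 the lowest of the 6, so the groups overlapped (log2 difference 0.16, 95% interval -0.64 to 0.96, adjusted p = 0.770). The estimate was -0.20 without KO replicate 1 (adjusted p = 0.457). When GC content and transcript length were also corrected for, it was 0.50 (adjusted p = 0.0216), so its sign depends on the processing. In that fit 53.8% of all genes passed, so the pass does not set Gbp9 apart.

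Counting could have moved reads between some of these genes, since the sources used here name neither the program nor its treatment of shared reads. Of the 31-base words in its transcripts, Gbp9 shared 18.3% with other genes (9.11% with Gbp8), Gbp7 14.7% (10.8% with the pseudogene Gm43802) and Gbp2 4.85% (4.61% with Gbp2b). Igtp shared 15.9% with Irgm2, and the GENCODE models of the 2 genes overlap by 162 exonic bases. Values of Gbp7, Gbp9, Igtp and Irgm2 are therefore uncertain to that extent.

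**Figure D2:**
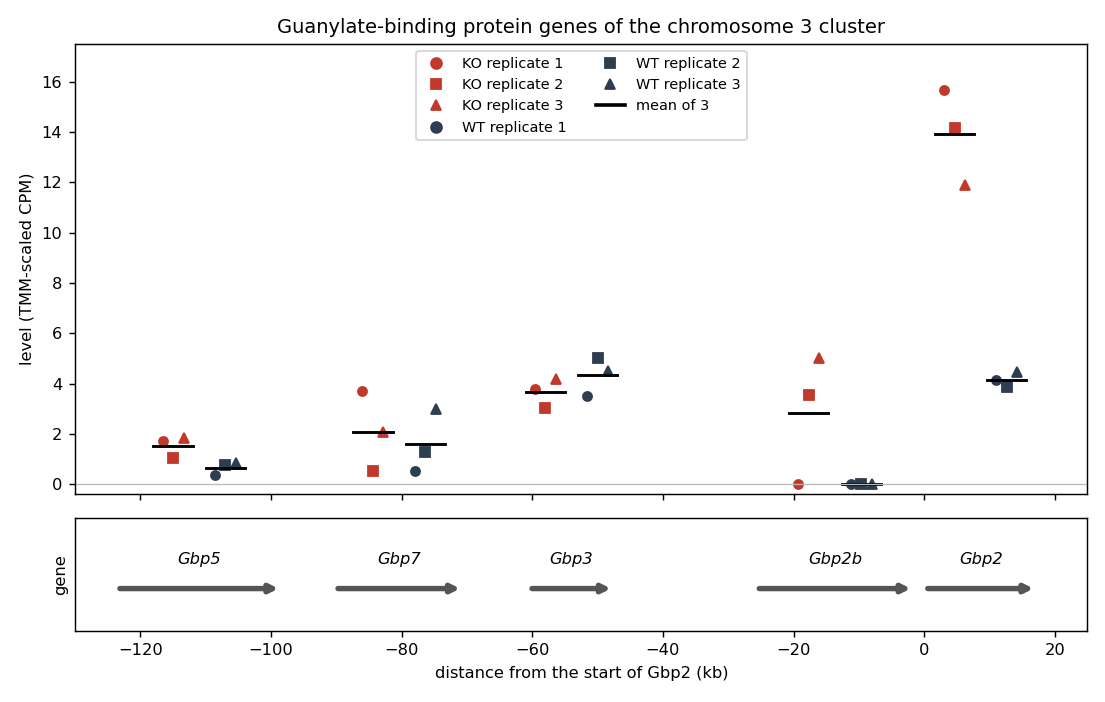
Level of the 5 GBP genes of the chromosome 3 cluster in every library (TMM-scaled CPM, linear axis), placed by distance in kb from the start of Gbp2, with arrows for the genes and their direction. Gbp2 is at 11.9 to 15.7 CPM in KO and 3.87 to 4.45 CPM in WT, while Gbp3 overlaps between the groups and Gbp2b has counts in KO replicates 2 and 3 alone.

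The 5 genes of this cluster lie in 141.1 kb, all on the plus strand, but their patterns across the libraries differed. Gbp2b (also called Gbp1), the gene next to Gbp2 and not among the 10 members, had 69 and 96 counts in KO replicates 2 and 3 and 0 counts in KO replicate 1 and in the 3 WT libraries. A count of 0 allows up to 3 counts, or 0.165 to 0.18 CPM in the 4 libraries at 0, so KO replicates 2 and 3, at 3.543 and 5.004 CPM, were at least 19.7-fold and 27.8-fold higher than the highest of these limits in WT. This limit covers counting error only. Gbp2b lacked counts in enough libraries to be tested with all 6. The libraries with Gbp2b counts were not the ones highest in Gbp2, which was highest in KO replicate 1. The difference in log2(CPM + 0.5) between Gbp2 and Gbp3 was 1.91, 2.06 and 1.41 in KO and 0.22, -0.34 and -0.02 in WT. It was 1.84 larger in KO with no overlap between the groups, at the smallest p that an exact 2-sided permutation of 20 assignments can give (p = 0.1, adjusted 0.133 over 4 pairs of members). The same difference between Gbp2 and Gbp5 was 0.81 larger in KO (exact permutation p = 0.2, adjusted 0.2). All 4 pairs, including those given below, are made of members whose own levels are reported here. They restate those levels and are a description, not separate support, and the adjustment does not cover the choice of pairs.

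Among the regulatory IRGs, Irgm2 gave the highest estimate, above Irgm1 and Igtp. Irgm2, at chr11:58214977-58222783, guards host membranes and limits effector GTPases and caspase-11 responses. Its level was 32.1, 39.1 and 35.6 CPM in KO and 23.8, 26.9 and 27.1 CPM in WT. The groups did not overlap and were each narrow, but the 1.37-fold higher mean in KO (log2 difference 0.46, SE 0.11, 95% interval 0.18 to 0.74) missed the threshold (adjusted p = 0.0905 by edgeR). It passed without KO replicate 1 (0.54, adjusted p = 0.00391), and the authors' deposited table lists it at a q-value of 0.0486. Irgm1, at chr11:48865245-48871420 on the minus strand, controls autophagy and resistance to mycobacteria. It was at 60.2, 42.0 and 44.5 CPM in KO and 44.1, 47.2 and 52.7 CPM in WT, with KO replicate 1 the highest and the other KO libraries among the lowest. The log2 difference was 0.03 (95% interval -0.38 to 0.43, adjusted p = 0.930), and -0.14 without KO replicate 1 (adjusted p = 0.324). Igtp, at chr11:58199556-58207592 on the plus strand, is needed for resistance to Toxoplasma. Its levels of 17.6, 19.2 and 19.9 CPM in KO and 14.9, 20.6 and 17.4 CPM in WT overlapped (log2 difference 0.10, 95% interval -0.26 to 0.46, adjusted p = 0.688). It was 0.16 without KO replicate 1 (adjusted p = 0.387).

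Irgm2 and Igtp lie side by side and share the spaced pair of motifs printed above, but the interval of Irgm2 lay above 0 while that of Igtp spanned it. The log2(CPM + 0.5) difference between them, Irgm2 minus Igtp, was 0.85, 1.01 and 0.82 in KO and 0.66, 0.38 and 0.62 in WT. It was 0.34 higher in KO, with no overlap between the groups, at the smallest p this design allows (exact permutation p = 0.1, adjusted 0.133). This restates the levels of both genes and is a description.

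Of the effector IRGs, Ifi47 at chr11:49076587-49096987 was at 22.6, 22.5 and 20.4 CPM in KO and 12.9, 14.8 and 15.3 CPM in WT. All 3 KO libraries were above all 3 WT libraries, and KO replicate 1 lay with the other KO libraries. The mean was 1.52-fold higher in KO (log2 difference 0.61, SE 0.12, 95% interval 0.32 to 0.89), which narrowly missed the threshold (adjusted p = 0.0529 by edgeR). It passed without KO replicate 1 (0.60, adjusted p = 0.00423) and in the authors' deposited table (q-value 0.00218). Relative to Irgm1, the log2(CPM + 0.5) difference of Ifi47 was -1.39, -0.88 and -1.11 in KO and -1.74, -1.64 and -1.75 in WT. It was 0.58 higher in KO (exact permutation p = 0.1, the smallest possible, adjusted 0.133), a description of levels already given. Iigp1, whose protein coats and disrupts Toxoplasma vacuoles, was at the limit of detection with 5, 1 and 2 counts in KO and 0, 1 and 3 in WT. Its depth-scaled ratio of 1.80 had an exact 95% binomial interval of 0.482 to 8.17, so a difference was not detectable at this depth, and the interval covers counting error only.

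**Figure D3:**
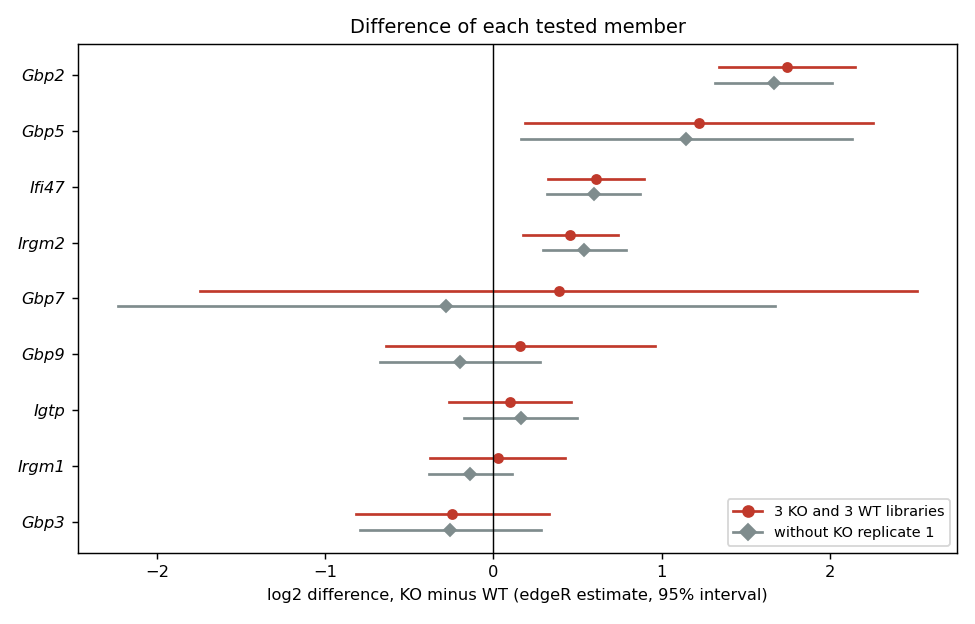
Log2 difference (KO minus WT) of the 9 tested members with 95% intervals from edgeR, with all libraries (circles) and without KO replicate 1 (diamonds). Intervals of Gbp2, Gbp5, Ifi47 and Irgm2 lie above 0 in both fits, and the estimates of Gbp7, Gbp9 and Irgm1 change sign.

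Tools differed in how many members they called. DESeq2 called 3 (Gbp2, Ifi47 and Irgm2), beside 8.71% of all genes it tested. In limma-voom Gbp2 alone was called, beside 3.11% of all genes it tested. The authors' q-value was under 0.05 for the same 3, beside 8.02% of the genes in the authors' deposited table with a q-value (5.28% as higher in KO). At an unadjusted p under 0.05, 4 of the 9 passed in edgeR, beside 22.7% of all genes.

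Compared per length of transcript, in the TPM values that the authors deposited, which scale counts by transcript length, 4 of the 5 IRGs stood above every GBP in the WT libraries. In WT, Irgm1 was highest at 38.4 ± 5.10 TPM (SD, n = 3), and no other member reached its lowest library. Igtp at 15.0 ± 2.61 TPM, Ifi47 at 14.5 ± 1.88 TPM and Irgm2 at 11.97 ± 1.32 TPM followed, with neighbours in this order overlapping. Below a gap came Gbp2 at 2.83 ± 0.312 TPM, Gbp3 at 2.66 ± 0.484 TPM and Gbp9 at 1.75 ± 0.380 TPM, again with overlap between neighbours. Gbp7 (0.460 ± 0.387 TPM) and Gbp5 (0.353 ± 0.155 TPM) were lower, and Iigp1 was at 0.0433 ± 0.0513 TPM.

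The order in the libraries labelled KO differed at several ranks. Irgm1 remained highest at 43.5 ± 11.2 TPM, and Ifi47 came next at 24.2 ± 2.50 TPM, with no overlap with Irgm2 at 18.1 ± 0.989 TPM. Irgm2 and Igtp, at 17.7 ± 0.506 TPM, overlapped. Gbp2 was at 10.6 ± 1.90 TPM, clear of Igtp above and of Gbp3 below, which was at 2.46 ± 0.433 TPM. Gbp9 at 2.14 ± 0.976 TPM overlapped Gbp3, while Gbp5 at 0.917 ± 0.283 TPM and Gbp7 at 0.663 ± 0.531 TPM overlapped each other.

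Summed over the 5 GBPs, the level was 20.8, 14.4 and 15.0 TPM in KO and 6.77, 7.77 and 9.62 TPM in WT. Summed over the 5 IRGs it was 118, 96.3 and 96.4 TPM in KO and 69.1, 81.5 and 89.0 TPM in WT. The IRG sum was 5.68, 6.69 and 6.43 times the GBP sum in KO and 10.2, 10.5 and 9.25 times in WT, so the ratio was lower in each KO library than in any WT library. Of the GBP sum, Gbp2 alone gave 12.6, 10.3 and 8.77 TPM in KO and 2.70, 2.61 and 3.19 TPM in WT. These sums are a description, and TPM carry a shift of their own: on log2(TPM + 1) the median of all genes was 0.12 higher in KO, against -0.006 on the TMM scale.

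**Figure D4:**
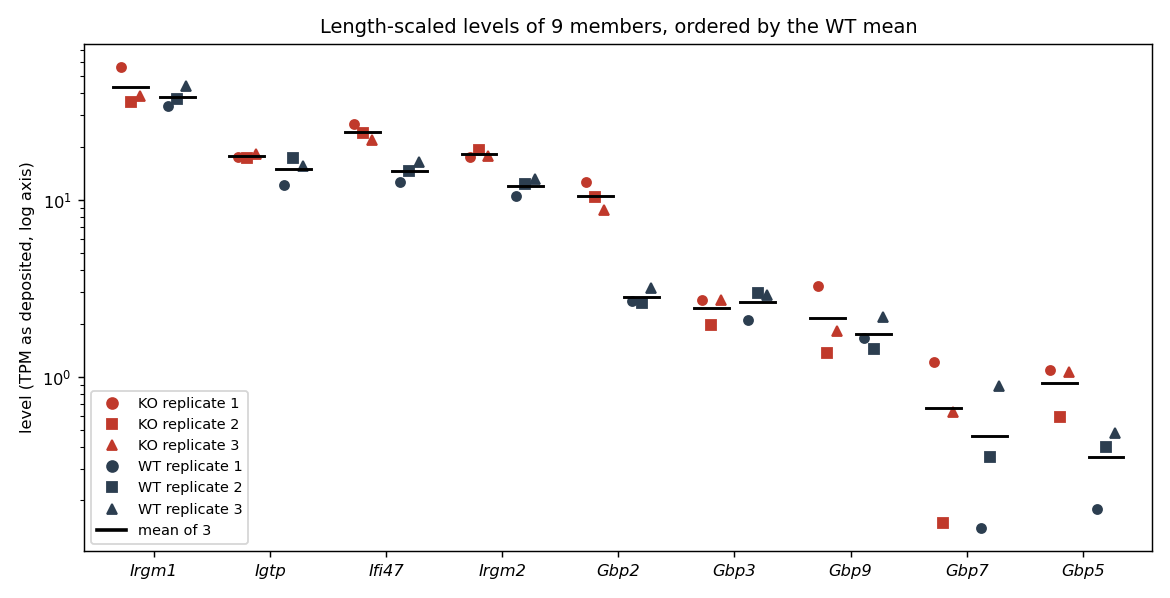
Level of 9 members in TPM as deposited (log axis), ordered by the WT mean, with a marker per library and a bar at the mean of 3. Gbp2 is at 8.77 to 12.6 TPM in KO and 2.61 to 3.19 TPM in WT, the widest separation between the groups in the plot.

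The members did not move as a block across the 6 libraries. Gbp2 and Ifi47 followed each other most closely (Pearson r of log2 CPM 0.97, n = 6 libraries), Irgm2 followed Ifi47 at 0.93, and Gbp2 and Irgm2 correlated at 0.89. A separate trio, Gbp7, Gbp9 and Irgm1, was highest in KO replicate 1, with an r of 0.91 between Gbp9 and Irgm1 and of 0.84 between Gbp7 and Irgm1. Gbp3 ran against Gbp2, at -0.54. The points of these correlations share the same libraries and the difference between the groups, so they are descriptions. KO replicate 1 was the highest library for 5 of the 9 tested members. KO replicate 2 was the lowest for 4 and WT replicate 1 for another 4. The mean of the members' standardised log2 CPM was 0.83, -0.11 and 0.45 in KO and -1.04, -0.15 and 0.02 in WT, so KO replicate 2 lay among the WT libraries on this measure.

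The genes most like this mean profile, among 8276 others with a mean of at least 10 CPM, included Ap2a1 (r = 0.98 over 6 libraries), Mief1 (0.98), Inpp5e (0.97) and Zfp346 (0.97). These 4 spanned narrow ranges, such as 108 to 112 CPM for Ap2a1, an adaptor subunit of clathrin coats, and none of them passed the test.

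Of 19 other GBP and IRG family genes, 16 were in the table, 11 were tested and 0 passed in edgeR (2 at an unadjusted p under 0.05). limma-voom also called 0, and DESeq2 called 1, Tgtp2. Their median log2 difference was -0.48, against 0.39 for the members. Both sets were chosen with earlier results of these data known, so this contrast is a description and no trait of the members. The effector gene Tgtp2 (Irgb6), also on chromosome 11, was at 4.13, 1.23 and 2.45 CPM in KO and 0.523, 0.693 and 0.781 CPM in WT. Its groups did not overlap, but KO replicate 1 was far above KO replicate 2, and the 3.88-fold difference did not pass (adjusted p = 0.0951 by edgeR). The authors' deposited table lists it at a q-value of 0.0185. Its near copy Tgtp1 had 6, 0 and 0 counts in KO and 2, 0 and 0 in WT, so reads between the 2 genes may have been divided by the counting.

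Irgq, an IRG relative, was at 46.1, 58.7 and 56.7 CPM in KO and 38.3, 42.1 and 38.6 CPM in WT, and Gm12250 (Irgb10), an effector that attacks bacterial membranes, at 7.43, 8.01 and 7.25 CPM against 6.28, 6.07 and 6.61 CPM. Neither passed the test (adjusted p = 0.107 and 0.316), although the groups did not overlap in either gene. Gbp8 had the reverse order, at 1.87, 1.95 and 1.62 CPM in KO and 3.26, 2.25 and 2.40 CPM in WT, also without overlap (log2 difference -0.54, adjusted p = 0.254).

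Other relatives were high in KO replicate 1 and low in KO replicates 2 and 3. Gvin1, a very large interferon-inducible GTPase, was at 123, 5.96 and 15.8 CPM in KO and 46.1, 48.6 and 80.3 CPM in WT. The related gene Gm4070 was at 85.5, 6.37 and 20.5 CPM in KO and 34.4, 47.5 and 75.0 CPM in WT. With KO replicate 1 the groups overlapped in both genes, and without it the log2 differences were -2.41 (adjusted p = 0.00584) and -1.95 (adjusted p = 0.0255). Gm5431 (16.5, 6.93 and 9.33 CPM in KO), F830016B08Rik (7.65, 1.44 and 2.29 CPM), Gm12185, Gbp4 and Gbp6 had the same order within KO and overlapped WT. Without KO replicate 1, 10 of 12 tested family genes passed, 3 as higher in KO and 7 as lower, beside 49.6% of all genes (23.6% as higher in KO). One of the 3 is Gbp2b, which entered that fit through the KO libraries where it has counts and is no support for a difference. The remaining 3 family genes with counts, Gm4951, Gm4841 and Irgc1, did not reach 1 CPM in any library and were not tested. Of the 9 monocyte markers, some were also far higher in KO replicate 1 than in the other KO libraries, such as Ly6c2 (20.1 CPM, against 0.103 and 0.0521 CPM, and 0.175 to 0.751 CPM in WT) and Ccr2. Others were not: Cx3cr1 was at 53.7, 52.4 and 50.3 CPM in KO, Spn at 28.6, 41.3 and 39.0 CPM, and Chil3 in KO replicate 1 (1.27 CPM) lay within its WT range. The part of those cells in the levels of Gvin1 or the members was not tested.

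In the pathway that acts on the members, the ligand gene Ifng had 0 counts in 5 libraries and 1 count in KO replicate 2. Markers of T and NK cells, which commonly make this ligand, summed to 3.25 to 28.9 CPM in KO and 22.6 to 29.1 CPM in WT over the 8 of 12 genes in the table. Nearly all of that was Cd4, followed by Klrb1c at 0.165 to 1.10 CPM in KO and 0.291 to 0.520 CPM in WT. The other 6 (Cd3e, Cd3g, Cd8a, Cd8b1, Ncr1 and Nkg7) did not exceed 0.231 CPM in any library. Irf1, which acts on the interferon-response element, was at 49.3, 58.1 and 52.8 CPM in KO and 40.5, 48.2 and 43.3 CPM in WT (1.22-fold, adjusted p = 0.206). Irf8, a partner of PU.1, was at 203, 220 and 233 CPM in KO and 246, 256 and 238 CPM in WT (0.887-fold, adjusted p = 0.282), all KO libraries lying below WT. Over the 15 tested genes of interferon gamma signalling, edgeR called 0 (4 at an unadjusted p under 0.05), limma-voom 0 and DESeq2 1. With KO replicate 1 left out, 4 were higher and 4 lower, beside the 49.6% of all genes called in that fit.

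**Figure D5:**
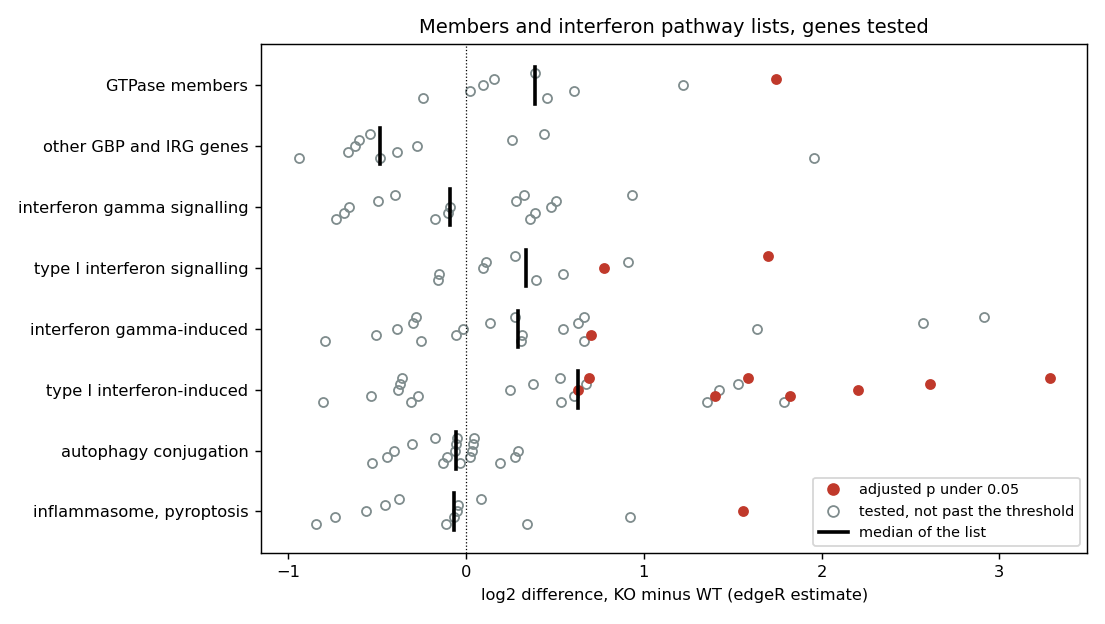
Log2 difference (KO minus WT, edgeR) of every tested gene of the members and of 7 related lists, filled where the adjusted p was under 0.05, with the median of each list as a bar. Called genes number 8 of 25 in the type I interferon-induced list, 1 of 9 among the members and 0 of 11 among the other GBP and IRG genes.

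Across the 7 related lists 12 of 112 tested genes rose in the libraries labelled KO and none fell in edgeR. Over all genes tested, 2.26% were called higher and 3.32% in either direction. The direction was mixed in other fits: DESeq2 called 22 list genes higher and 4 lower, beside 8.71% of all genes. Without KO replicate 1, edgeR called 37 of 113 higher and 34 lower. Genes induced by type I interferon held 8 of the 12 edgeR calls from all libraries, out of 25 tested, with a median log2 difference of 0.63. Ifi27l2a, an interferon-induced mitochondrial protein, was 9.74-fold higher in KO (adjusted p = 0.0147), Rtp4, an antiviral chaperone-like gene, 6.11-fold (adjusted p = 0.0249), Ifit3, which helps to detect viral RNA, 4.62-fold (adjusted p = 0.0454), and Oas3, a sensor of double-stranded RNA, 3.54-fold (adjusted p = 0.0157). Without KO replicate 1, 12 of the 25 were higher and 7 lower, beside 49.6% of all genes called in that fit and 23.6% called higher. In type I interferon signalling 2 of 10 rose, Irf7 (3.24-fold, adjusted p = 0.0269) and Stat2 (1.72-fold, adjusted p = 0.0249), with a median of 0.34. Among the genes induced by interferon gamma that are not GTPases 1 of 20 rose, Tap1, the peptide transporter of MHC class I presentation (1.63-fold, adjusted p = 0.0258), with a median of 0.29. This list moved both ways without KO replicate 1, with 8 of 20 higher and 6 lower, beside the same shares of all genes. In DESeq2, 4 of its genes were called higher and 1 lower. Leaving out any library other than KO replicate 1 left 0 or 1 gene called over these lists.

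The list of autophagy genes and ubiquitin partners includes some whose proteins help to load IRGs and GBPs onto vacuoles. It gave 0 calls among 18 tested in edgeR (5 at an unadjusted p under 0.05), 0 in limma-voom and 2 lower in DESeq2, with a median of -0.05. The lowest p belonged to Gabarapl1, an LC3-like tag, at 0.811-fold in KO (adjusted p = 0.0892). Of 13 inflammasome genes, which act downstream of the GBPs, 1 rose: Nlrp3, a sensor that starts caspase-1 activation, at 69.7, 75.5 and 68.3 CPM in KO and 24.7, 24.0 and 24.0 CPM in WT. It was 2.94-fold higher (adjusted p = 0.00322 by edgeR), and the median of that list was -0.07. DESeq2 also called 1 of these genes lower. Mefv, the pyrin gene, had a log2 difference of -0.84 without overlap (adjusted p = 0.0613 by edgeR), and the authors' deposited table lists it at a q-value of 0.00387. The lists were drawn up with earlier results of these data known, so their counts are descriptions and no list was tested against other genes.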

How the data were processed

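Messenger RNA of 6 libraries (3 labelled KO, 3 labelled WT in their titles) was captured on beads and sequenced on an Illumina instrument, per the labels' protocols. The submitters' processing notes name fastp 0.18.0 and build GRCm39; no aligner or counting program is named in the sources used here. The authors deposited estimated counts per gene, not normalized, per the file headers; 4.82% to 5.49% of the values of a library were not whole and were rounded. They also deposited TPM values, log2 fold changes and DESeq2 q-values, per the file headers; these log2 values are positive where KO is higher.

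Coordinates are those of GRCm38, since 13131 of 15426 genes matched to RefSeq GRCm38.p6 had the same start in the deposited table. For Irgm1, Irgm2, Igtp and Ifi47 the table joins a position on a scaffold to one on chromosome 11, so RefSeq positions were used.

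Genes passing filterByExpr (minimum count 10) were tested, 11424 of 15469, with TMM factors and the quasi-likelihood test of edgeR 4.0.16 (robust, R 4.3.3), with a term for group alone; p-values were adjusted by Benjamini-Hochberg over these genes and called under 0.05. The fit was tested on simulated data. Single values were compared by exact permutation. The 4 pairs of members so compared were not part of the planned tests. Members and lists were chosen with earlier results of these data known. Named were all members, family genes with a count, up to 4 called genes with the highest absolute log2 difference and a mean of at least 1 CPM per pathway list (or the gene with the lowest p), Ifng, Irf1, Irf8, Spi1 and the 5 genes most like the members' mean profile; genes this rule names that are absent from the text are not reported here. Other genes (Gm43802, Adar, LOC115488470 and single markers) were named after their values or matches were seen. The alternatives tried were upper-quartile or RLE factors, limma-voom (limma 3.58.1), DESeq2 1.42.0, limma on log2(TPM + 1), a filter of 10 CPM on the mean, no filter, a replicate block, leaving out each library, an adjusted p under 0.01 and an added 2-fold threshold. A correction for GC content and length (mgcv 1.9.3), alone and without KO replicate 1, was added after seeing the data.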

Additional observations from a re-analysis of the deposited data

How the results depend on the processing

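The count of 379 called genes across the table stayed within 1.5 times that number with RLE or upper-quartile factors, limma-voom and no filter, and was 1344 with DESeq2, 899 with limma on log2(TPM + 1), 229 with a mean of at least 10 CPM, 648 with the GC and length correction, 6206 with that correction without KO replicate 1, 15 at an adjusted p under 0.01 and 234 with an added 2-fold threshold. Leaving out a library gave 5 to 5793 genes. As shares of all genes tested, 3.34% were called with upper-quartile factors, 5.73% with the GC and length correction and 8.71% with DESeq2. With limma on log2(TPM + 1) the share was 8.44%, and with the correction without KO replicate 1 it was 53.8%. Leaving out KO replicate 1 alone gave 49.6%. The 1 called member became 2 with upper-quartile factors and with the GC and length correction, 3 with DESeq2 and with limma on log2(TPM + 1), 4 with the correction without KO replicate 1, and 0 with a mean of at least 10 CPM (which leaves Gbp2 out) and at an adjusted p under 0.01; leaving out a library gave 0 to 3. The 12 called list genes became 26 with DESeq2, 22 with limma on log2(TPM + 1), 69 with the correction without KO replicate 1 and 1 at an adjusted p under 0.01; leaving out a library gave 0 to 71. With the replicate number as a block (replicate block), 0 genes, 0 members and 0 list genes were called, and Gbp2 had an adjusted p of 0.114 by edgeR at a log2 difference of 1.74. Whether equal numbers pair the samples is not settled here. Deviations of same-numbered libraries correlated at -0.162, 0.246 and -0.271 for replicates 1 to 3. Of the KO libraries, only replicate 2 correlated best with the WT library of its own number. Signs turned for members that did not pass: Gbp7 to -0.28 without KO replicate 1 and -0.04 without WT replicate 1; Gbp9 to -0.20 without KO replicate 1; Irgm1 to -0.14 without KO replicate 1, -0.05 without WT replicate 1, -0.01 without WT replicate 2 and -0.11 with the correction without KO replicate 1; and Igtp to -0.023 with the correction, -0.074 with the correction without KO replicate 1 and -0.035 without WT replicate 1. Leaving out a library gave -0.28 to 1.21 for Gbp7, -0.20 to 0.369 for Gbp9, -0.14 to 0.103 for Irgm1 and -0.035 to 0.203 for Igtp. The cause of these changes was not tested, other than that fewer genes or libraries enter some fits. Depth limits Iigp1, at 0 to 5 counts, and Gbp5, at 6 to 35 counts. Gbp7, at 9 to 67 counts, also spread widely within both groups (SE 0.863).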
